A study of Homo sapiens with 30 samples.

Results

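The cytosolic ribosomal protein genes are those whose annotated symbol is RPL or RPS followed by a number, together with RPLP0, RPLP1, RPLP2 and RPSA, without the RPS6K kinases and without pseudogenes. The array annotation used here names 78 of them. Each was represented by its brightest probe with a detection p-value under 0.05 on at least 3 of the 30 arrays. This gave 76 members among 13721 measured genes, 48 of the large subunit and 28 of the small subunit. RPL10L and RPL3L, paralogues known from testis and from striated muscle, were detected on 0 arrays. Some genes of the family were not analysed here. The family was defined by name, while the detection filter and the choice of probe used measured values.

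RNA came from the MCF-10A cell line, immortalized but not tumorigenic breast epithelial cells, and every culture overexpressed cyclin E, an oncogene that drives cells into S phase. The cells carried a stable short hairpin RNA (shRNA) against ATM, ATR, CHK1 or CHK2, the kinases of the replication stress response, or the control hairpin shControl. Each of the 5 shRNAs was measured on 3 arrays in each of 2 sets, so that 24 knockdown arrays stand beside 6 shControl arrays. Plates of 10 cm were seeded with 200000 cells and harvested after 48 hours, and the labels give neither the nature of the sets nor the source of the replicates, such as separate plates. All p-values therefore measure the spread between these arrays, which may be technical.

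Several values touch every comparison with shControl. CDKN2A, whose locus is known to be deleted in MCF-10A, was detected on 24 of 24 knockdown arrays and on 0 of 6 shControl arrays, and CDKN2B and MTAP, its neighbours, on 24 and 2. A principal component holding 57.6% of the variance separated knockdown from shControl arrays. The knockdowns and this difference between the cells cannot be told apart against shControl, and differences from shControl are given below as differences between these groups of arrays. CCNE1, the cyclin E1 gene, was lower in all 4 knockdowns, by -2.05 to -1.14 on the log2 scale. ATM and CHEK1 were lower in their own knockdowns in both sets, CHEK2 in shCHK2 only in set 1, and ATR was not lower in its own, so those arrays are called the arrays labelled shATR. The epithelial genes KRT5, KRT14, EPCAM and CDH1 were detected on all 30 arrays, as were CD14 and CD68, which are also leukocyte markers. CD14 was lower by -3.15 in the knockdowns. The leukocyte genes PTPRC and CD3E were detected on 1 and 0 knockdown arrays and on 0 shControl arrays. Of the fibroblast genes, DCN was detected on 12 knockdown and 3 shControl arrays, COL1A1 on 6 and 0, LUM on 1 and 1, and COL3A1 and PDGFRB on 0. Of the endothelial genes, PECAM1 was detected on 4 of 24 knockdown and 6 of 6 shControl arrays, CDH5 on 0 and 5, and VWF on 0. The part of these genes' cell types in the results was not tested. Between 18984 and 21732 probes were detected per array. Replicate 3 of shATR set 2 and replicate 3 of shCHK2 set 1 stood apart from their replicates on a further component. Without both of these arrays 23 members were called in the comparison of all knockdowns with shControl described below, beside 22 with them.

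A cytosolic ribosome is built from a small subunit, which decodes the mRNA, and a large subunit, which forms the peptide bond. Their proteins are made in near equal numbers and are assembled with ribosomal RNA in the nucleolus. Most of their mRNAs begin with a C followed by a run of pyrimidines, the 5′ terminal oligopyrimidine (TOP) tract, through which translation of the whole class is tied to mTORC1, and such control acts on translation more than on the mRNA level that an array reads. Some members have roles outside the ribosome. RPL5 and RPL11, bound to 5S rRNA, inhibit the p53 ligase MDM2 when ribosome assembly is disturbed, and RPS27L is itself a p53 target.

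The start sites show what joins most members and sets a few apart. In RefSeq promoters (GRCh38.p14), 65 of the 76 members had a listed start. A C at the start followed by at least 4 bases that are each C or T, read on the transcript strand, was present for 45 of these 65 members (69.2%). The same letters stood at the start of 1404 of 27305 genes with a listed promoter (5.14%). Allowing the run to begin within 5 bases of the start raised this to 53 members (81.5%) and 6886 genes (25.2%). The following 12 stretches of 30 bases, with the annotated start at the sixteenth base, were chosen to show the members that differed most between knockdown and shControl arrays, those that stayed level, and paralogue pairs with and without the tract. Capitals mark the C and the pyrimidines that follow it.
RPS23, chr5:82278340-82278369, minus strand: tcctgcggtgcttctCTCTTTCgctcaggc
RPL22L1, chr3:170870181-170870210, minus strand: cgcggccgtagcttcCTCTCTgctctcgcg
RPS7, chr2:3575245-3575274, plus strand: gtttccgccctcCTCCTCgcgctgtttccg
RPL28, chr19:55385917-55385946, plus strand: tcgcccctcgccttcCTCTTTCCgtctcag
RPL13A, chr19:49487593-49487622, plus strand: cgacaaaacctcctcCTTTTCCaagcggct
RPL22, chr1:6199581-6199610, minus strand: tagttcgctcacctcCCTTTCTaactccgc
RPS6, chr9:19380222-19380251, minus strand: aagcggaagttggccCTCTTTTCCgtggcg
RPL11, chr1:23691791-23691820, plus strand: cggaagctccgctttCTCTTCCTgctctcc
RPS27, chr1:153990747-153990776, plus strand: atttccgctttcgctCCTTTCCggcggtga
RPS27L, chr15:63157463-63157492, minus strand: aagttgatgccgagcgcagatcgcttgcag
RPL26, chr17:8383179-8383208, minus strand: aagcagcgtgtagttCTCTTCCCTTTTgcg
RPL26L1, chr5:172958714-172958743, plus strand: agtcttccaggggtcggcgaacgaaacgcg
RPS23 and RPL28, the members with the largest differences in opposite directions, both carry the tract at the start. RPS6 and RPL11, which stayed level, carry it too. For RPL11 the start shown is the second of 2 listed, and the first lacks the tract at the start. RPS27L and RPL26L1 lack it, unlike their paralogues RPS27 and RPL26. In RPS7 the capitals begin 3 bases before the annotated start, at the nearest C with at least 4 pyrimidines after it, inside a longer run of pyrimidines. Among members with a listed start, the tract was at the start of 4 of 5 called higher, 10 of 14 called lower and 31 of 46 not called in the comparison that follows.

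The members were among the brightest genes on the arrays. Of the 210 genes with a median intensity over 10000, 48 were ribosomal protein genes, and 72 members were detected on all 30 arrays. Only 9 members had a median intensity under 1000. The median standard deviation within a group of 3 arrays was 0.10 on the log2 scale for members and 0.18 for all genes. The median member value per array lay between 13.67 and 13.89 in knockdown set 1 and between 13.83 and 14.01 in knockdown set 2, against 13.87 to 13.94 on the shControl arrays of both sets. The lowest of these was replicate 3 of shCHK2 set 1. Quantile normalization gives every array the same distribution of values, so a shift shared by the brightest probes is removed by its construction.

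Most ribosomal protein genes measured near their shControl level, and a small group did not. A member was called when set 1 and set 2 each gave an adjusted p under 0.05 in limma with the same sign. For the mean of the 4 knockdowns against shControl, 22 of 76 members were called (28.9%), 5 higher and 17 lower. Over all genes 38.9% were called, 17.7% higher and 21.2% lower. The median difference was -0.02 over members and 0.02 over all genes (log2), and the median absolute difference was 0.09 over members and 0.32 over all genes. Of the members, 54 (71.1%) lay within 0.25 of shControl, against 42.5% of all genes. More than 1 log2 unit away were 4 (5.26%), against 13.9% of all genes. These contrasts are not matched for brightness, and 48 members had a median intensity over 10000. Such members lie near the top of the intensity range, which limits what a difference can show. Values by brightness are given below. By subunit, 2 of 48 large subunit members were higher and 10 lower, and 3 of 28 small subunit members were higher and 7 lower. In bulk RNA, fewer cells expressing a gene and less RNA per cell cannot be told apart.

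The call count and the direction of small differences depended on the scaling. With each array scaled to its median in place of quantile normalization, 13 members were called, 7 higher and 6 lower, and the median difference over members moved to 0.17, beside 0.06 over all genes. Of the 22 called members, 21 kept their direction under that scaling and 11 kept their call. For median scaling and the other alternatives below, the share of all genes called is not given. Whether such counts changed more than those of all genes was therefore not tested. Under 9 alternative ways of processing the whole table, 7 members were called every time. They were RPS23, RPS7 and RPS21, which were higher, and RPL28, RPL13A, RPS27L and RPL22, which were lower. RPL22L1 was called under the 8 that retained it, but it passed the detection filter through the knockdown arrays alone.

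**Figure D1:**
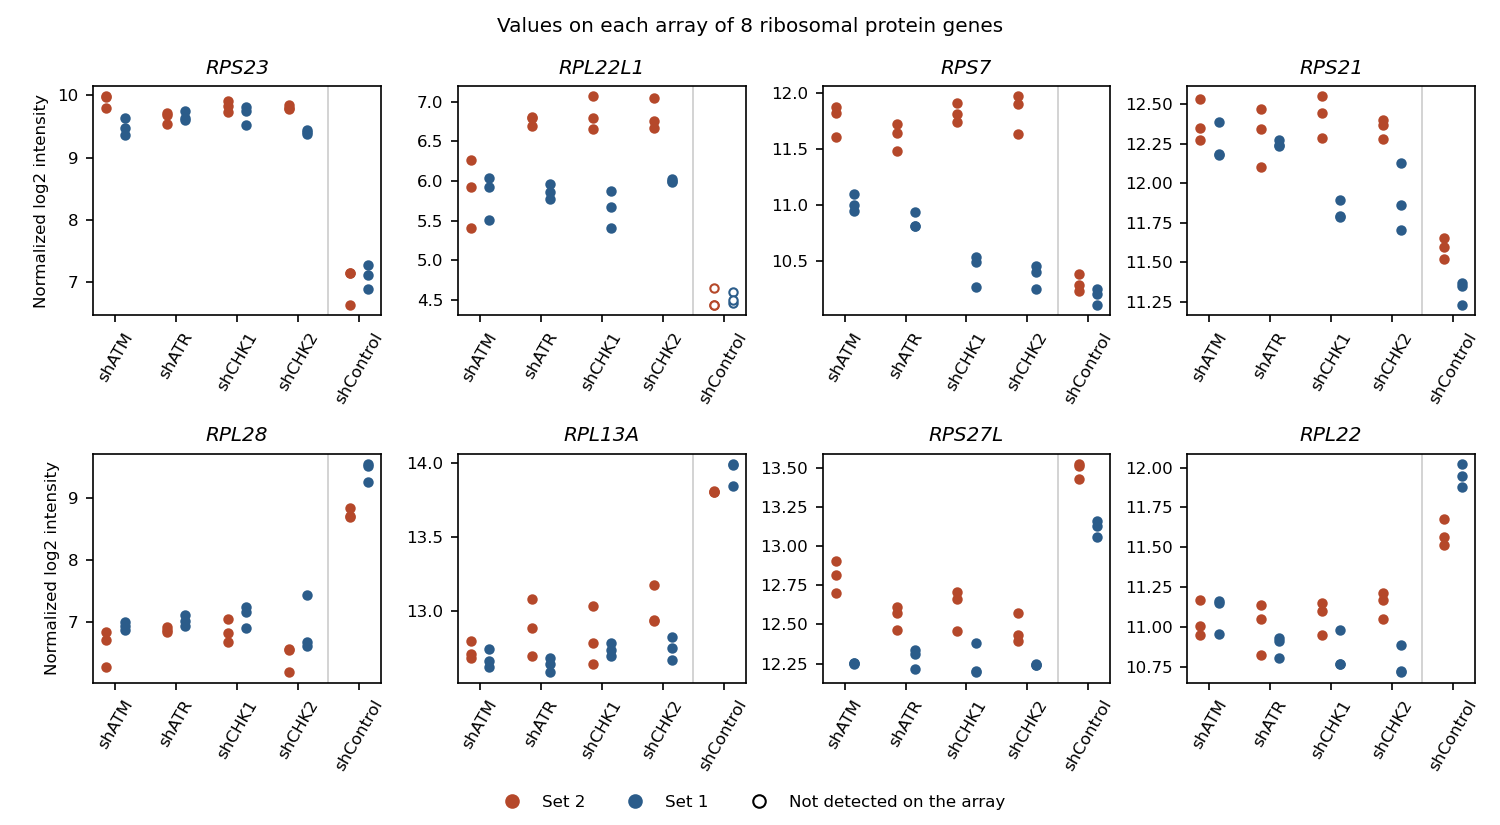
Normalized log2 intensity (vertical axis) on each of the 30 arrays for RPS23, RPL22L1, RPS7, RPS21, RPL28, RPL13A, RPS27L and RPL22, by shRNA, with set 2 in red left of set 1 in blue and open circles where the probe was not detected. The 6 shControl arrays at the right of each panel lie apart from the 24 knockdown arrays in every panel except that of RPS7, where values of shCHK1 and shCHK2 in set 1 reach those of shControl.

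RPS23, a protein of the decoding centre of the small subunit, showed the largest rise. Its values ran from 9.36 to 9.98 (median 9.72) on the 24 knockdown arrays, against 6.63 to 7.26 (median 7.13) on the 6 shControl arrays (normalized log2 intensity). No knockdown array reached a shControl array. The difference was 2.65 (SE 0.07, adjusted p = 3.8e-22), a 6.29-fold higher intensity, and lay between 2.58 in shCHK2 and 2.73 in shCHK1. It rests on a single, dim probe with a median intensity of 931, which was detected on every array. On the shControl arrays its intensity was 192 to 255, beside a median of 119 over all probes.

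RPL22L1, a paralogue of RPL22 in the large subunit, was detected on all 24 knockdown arrays and on none of the 6 shControl arrays. Its values ran from 5.40 to 7.07 (median 6.01) on knockdown arrays, against 4.44 to 4.65 on shControl arrays, which are values at background. Taking the faintest detected probe of each shControl array as a floor, RPL22L1 was at least 2.42-fold higher in the knockdowns (the adjusted p of the fitted difference was 6.2e-15). It passed the detection filter through the knockdown arrays alone, so its call supports nothing about the family. RPL22 itself, which in mouse is known to repress its paralogue, moved the opposite way. It measured 10.71 to 11.21 (median 10.97) on knockdown arrays, against 11.52 to 12.02 (median 11.78) on shControl arrays, with no overlap. The difference of RPL22 was -0.79 (SE 0.05, adjusted p = 9.9e-13). Whether the opposite changes of this pair are linked was not tested.

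RPS7, a small subunit protein that also binds MDM2, rose in both sets and more in set 2. Its values were 11.48 to 11.97 in knockdown set 2 and 10.25 to 11.10 in knockdown set 1, against 10.23 to 10.38 in shControl set 2 and 10.11 to 10.25 in shControl set 1. The difference was 0.97 (SE 0.06, adjusted p = 3.0e-14) on average, 1.46 in set 2 and 0.48 in set 1. A further RPS7 probe gave 1.03. The call was not made for shCHK2 alone, where the average difference was 0.86.

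RPS21, a small subunit protein, measured 11.71 to 12.55 (median 12.27) on knockdown arrays, against 11.23 to 11.65 (median 11.45) on shControl arrays. The difference was 0.76 (SE 0.06, adjusted p = 1.3e-11), 0.78 in set 2 beside 0.74 in set 1. RPS21 lies on chromosome 20, whose 371 measured genes were higher by a median of 0.32 in the knockdowns. With the median of its chromosome subtracted on each array, RPS21 stayed higher by 0.41. RPL14 of the large subunit was higher by 0.52 (SE 0.06, adjusted p = 1.5e-08). It stood at 0.84 in set 2, against 0.20 in set 1. Its other probe gave 0.17 and was not called. The call for RPL14 was lost with chromosome medians subtracted, with the mean of its probes and without the detection filter. It was lost under 13 of 40 alternatives in all, and the further losses came from leaving out single arrays of set 1.

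RPL28, a large subunit protein, showed the largest fall. Its values ran from 6.17 to 7.43 (median 6.86) on knockdown arrays, against 8.71 to 9.56 (median 9.05) on shControl arrays. The groups did not overlap, and all 30 arrays detected the probe. The difference was -2.27 (SE 0.09, adjusted p = 1.9e-17), a 4.81-fold lower intensity, and lay between -2.44 in shCHK2 and -2.13 in shCHK1. RPL28 rests on 1 probe with a median intensity of 216, far dimmer than most members.

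RPL13A, which besides its place in the large subunit takes part in translational silencing of inflammatory mRNAs, fell in every knockdown. It measured 12.58 to 13.17 (median 12.74) on knockdown arrays, against 13.80 to 13.99 (median 13.83) on shControl arrays. The difference was -1.10 (SE 0.06, adjusted p = 1.7e-15). RPL13A had a median intensity of 7290, below the 48 members over 10000, and rests on a single probe.

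RPS27L, the p53-induced paralogue of RPS27, also fell without overlap. It measured 12.19 to 12.90 (median 12.39) on knockdown arrays, against 13.06 to 13.52 (median 13.29) on shControl arrays. The difference was -0.87 (SE 0.05, adjusted p = 3.8e-15), nearly the same in set 2 (-0.88) as in set 1 (-0.85). RPS27, whose annotated start carries the tract that RPS27L lacks, differed by -0.02 (95% interval -0.11 to 0.08).

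RPL13, a large subunit protein, fell to 10.37 to 11.55 (median 10.86) on knockdown arrays, against 11.56 to 11.94 (median 11.67) on shControl arrays. The difference was -0.85 (SE 0.08, adjusted p = 1.6e-10) for this probe and -0.08 for the other RPL13 probe. RPL13, RPS2 and RPS15A lie on chromosome 16, whose 609 measured genes were lower by a median of -0.36 in the knockdowns. With that median subtracted on each array, RPL13 stood at -0.47 and lost its call, RPS2 stood at 0.09, beside -0.28 without subtraction, and RPS15A at 0.19, beside -0.19. RPL34 and RPS3A lie on chromosome 4, whose 492 measured genes had a median of -0.19. Subtraction left RPS3A called at -0.20, beside -0.43 without it, and left RPL34 uncalled at -0.42, beside -0.66.

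The other members called lower differed by less than 0.50. They were RPS9 (-0.49), RPL12 (-0.49), RPL39L (-0.42), RPL26L1 (-0.33), RPS14 (-0.27), RPL36 (-0.27) and RPL10A (-0.25), with standard errors of 0.04 to 0.06. None of these members kept its call under median scaling. RPS14, the small subunit protein whose gene is lost in the 5q- form of myelodysplasia, stood at -0.06 there. RPS9 and RPL12 stood at -0.35 and -0.30, and RPL39L, RPL26L1, RPL36 and RPL10A at -0.25, -0.12, -0.08 and -0.07. RPS4Y2, whose probe is close to background, was detected on 6 of 24 knockdown arrays and 6 of 6 shControl arrays. RPS4Y2 is counted among the 17 but given no level. It and RPS4Y1, a member that was not called, lie on chromosome Y. Whether their probes read these genes was not tested.

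Separation of the arrays gave a similar picture. In 13 of 76 members (17.1%) the 12 knockdown arrays lay wholly on the same side of the 3 shControl arrays in both sets, 3 higher and 10 lower, against 25% of all genes. The 3 were RPS23, RPL22L1 and RPS21. RPL22L1 passed the detection filter through the knockdown arrays alone, so its separation supports nothing about the family. The 10 were RPL28, RPL13A, RPS27L, RPL13, RPL22, RPL12, RPS3A, RPL39L, RPS14 and RPS15A.

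Calls were fewest among the brightest members. Of the 48 members with a median intensity over 10000, 6 were called (12.5%), all lower, and their median absolute difference was 0.04. Of all 210 genes that bright, 21.4% were called, with a median absolute difference of 0.10. Of the 19 members between 1000 and 10000, 11 were called (57.9%), and of the 9 members under 1000, 5 were called (55.6%). Among all genes the shares were 46.9% and 37.4% in those ranges. Between 1000 and 10000 the median absolute difference was 0.52 for members and 0.33 for all genes. Under 1000 it was 0.42 and 0.32, so members below 10000 did not differ less than other genes.

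**Figure D2:**
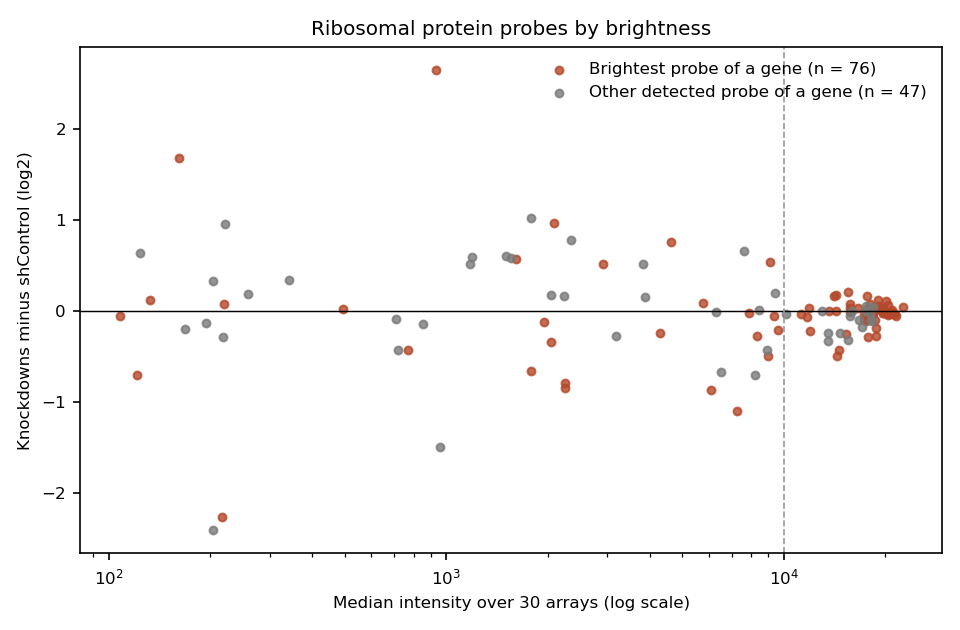
Log2 difference between knockdown and shControl arrays (vertical axis) against the median intensity over 30 arrays (log scale) for the 76 brightest probes of members (red) and the 47 other detected probes of the same genes (grey). To the right of the dashed line at an intensity of 10000 the points lie close to 0, and the differences over 1 log2 unit all lie to its left.

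Probes of the same gene did not always move together. Of the 76 members, 35 had more than 1 detected probe. Among the 13 called members with a further probe, every other probe was called the same way in 6 and none was in the other 7. RPS7, RPL12, RPL34, RPL39L, RPS9 and RPS14 had a further probe called the same way. RPL36 had a further probe at 0.35, opposite in sign to its main probe (-0.27). RPS29 gave the widest gap. Its 3 bright probes differed by -0.03, 0.01 and 0.05, while a further, dim probe with a median intensity of 204 differed by -2.41. A dimmer probe of RPLP1 differed by 0.67, with 1.29 in set 2 and 0.04 in set 1, while the main probe differed by 0.07. Other members that were not called also had a further probe that was called. It was higher in RPS26 (0.96, beside -0.24 for the main probe), RPL6 (0.78), RPL9 (0.61), RPL8 (0.59), RPS15 (0.52) and RPS24 (0.52). It was lower in RPS4X (-0.43) and RPL3 (-0.31). Which transcripts these probes read was not tested.

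Members known for roles in p53 control and in disease included called and uncalled genes. RPL5, a carrier of 5S rRNA, measured 13.36 to 13.90 (median 13.53) on knockdown arrays, against 13.40 to 13.71 (median 13.54) on shControl arrays, a difference of 0.03 (95% interval -0.08 to 0.15). RPL11, its partner in the 5S particle, measured 13.95 to 14.35 (median 14.19) on knockdown arrays, against 14.12 to 14.29 (median 14.22) on shControl arrays, a difference of -0.02 (-0.12 to 0.07). Both groups overlapped for both genes. Of 8 members known to bind MDM2 (RPL5, RPL11, RPL23, RPL26, RPS3, RPS7, RPS14 and RPS27L), RPS7 was higher and RPS14 and RPS27L were lower (37.5%, beside 28.9% of all members and 38.9% of all genes), with a median of -0.02.

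RPS6, the small subunit substrate of the S6 kinases, measured 14.17 to 14.67 (median 14.42) on knockdown arrays, against 14.22 to 14.48 (median 14.39) on shControl arrays, a difference of 0.02 (95% interval -0.08 to 0.12). RPS19, the member most often mutated in Diamond-Blackfan anaemia, differed by 0.13 (0.02 to 0.23) and was called in set 1 only. Median scaling gave 0.31 for RPS19 with a call in both sets, as did subtraction of chromosome medians (0.26). Of 17 measured members linked to that anaemia, RPS7 was called higher and RPS15A lower (11.8%, beside 28.9% of all members and 38.9% of all genes). The stalk proteins RPLP1 and RPLP2, which recruit translation factors, differed by 0.07 (-0.03 to 0.16) and by -0.10 (-0.19 to -0.0032).

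Paralogue pairs gave unequal results. RPL39L, known for expression in testis and in tumours, was lower by -0.42 (SE 0.06), beside 0.04 (95% interval -0.06 to 0.13) for RPL39. RPL26L1 was lower by -0.33 (SE 0.05), beside -0.05 (-0.15 to 0.05) for RPL26. RPL7L1, a factor of large subunit assembly, differed by 0.18 (0.09 to 0.28), beside 0.10 (-0.05 to 0.24) for RPL7. RPL36AL and RPL36A differed by -0.03 (-0.16 to 0.11) and 0.03 (-0.10 to 0.16). RPL22L1 and RPS27L, described above, were the paralogues with the largest differences. Sequence shared between paralogues could let a probe read both, which was not tested.

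The differences from shControl were counted in each knockdown in turn. Against shControl, 19 members were called in shATM (25%), 6 higher and 13 lower, beside 32.2% of all genes (14.3% higher and 17.9% lower). The arrays labelled shATR also had 19 members called (25%), 6 higher and 13 lower, beside 33.3% of all genes (15.1% and 18.2%). In shCHK1 16 were called (21.1%), 5 higher and 11 lower, beside 33.4% of all genes (15.1% and 18.4%), and in shCHK2 15 (19.7%), 3 higher and 12 lower, beside 33.9% (15.3% and 18.6%). Median scaling gave 6 higher and 7 lower in shATM, 8 and 6 in the arrays labelled shATR, 4 and 4 in shCHK1, and 5 and 6 in shCHK2. These comparisons share the same shControl arrays.

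**Figure D3:**
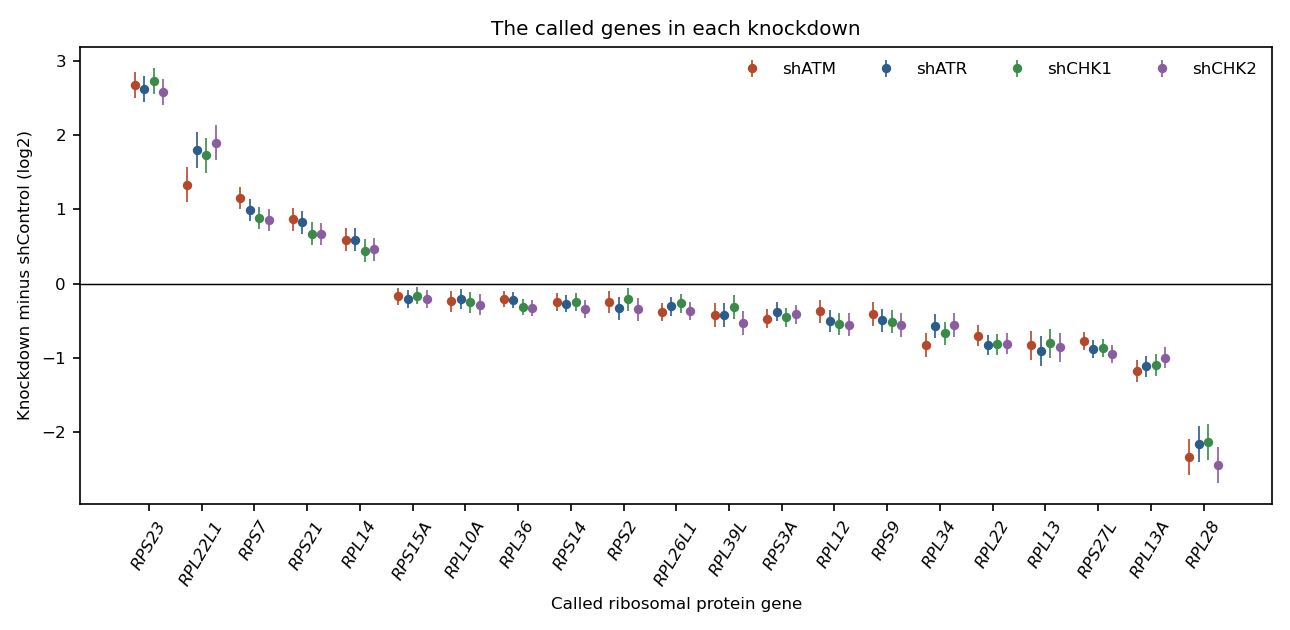
Log2 difference from shControl (vertical axis) of 21 called members in shATM, the arrays labelled shATR, shCHK1 and shCHK2, with 95% intervals from the limma fit. RPS4Y2, near background, is not drawn. Within a gene the 4 points lie close together, and the widest spread is that of RPL22L1, whose fitted values against shControl arrays at background run from 1.33 in shATM to 1.90 in shCHK2.

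Comparisons among the knockdowns, which leave the shControl arrays out, gave no call. Each knockdown was set against the mean of the other 3, and 0 of 76 members were called in each of the 4 comparisons with limma, nor did any member reach an unadjusted p under 0.05 in both sets. Over all genes 2.59% were called for shATM (1.77% higher and 0.816% lower) and 0.0364% for the arrays labelled shATR (0.0219% and 0.0146%). The shares were 0.35% for shCHK1 (0.0802% and 0.27%) and 1.56% for shCHK2 (0.619% and 0.94%). The largest difference was that of RPL22L1 in shATM, -0.48 on average (95% interval -0.67 to -0.28), which was -0.94 in set 2 and -0.01 in set 1. RPL22L1 measured 5.41 to 6.26 (median 5.92) on shATM arrays, against 5.78 to 6.80 on arrays labelled shATR, 5.40 to 7.07 on shCHK1 and 5.98 to 7.04 on shCHK2 arrays. These ranges overlap over both sets together, but in set 2 the shATM arrays, at 5.41, 5.92 and 6.26, lay below all arrays of the other 3 knockdowns, the lowest of which was at 6.66. RPS7 in shATM differed by 0.24 (0.12 to 0.36), with 0.01 in set 2 and 0.46 in set 1. RPL34 in shATM differed by -0.23 (-0.36 to -0.10), with -0.65 in set 2 and 0.19 in set 1. On the average over sets, 4 members (5.26%) passed an adjusted p of 0.05 for shATM, beside 16.2% of all genes, and 0 for the other 3 knockdowns. All 76 members lay within 0.25 of the other knockdowns for the arrays labelled shATR and for shCHK1, and 75 did so for shATM and for shCHK2.

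Between the sets, ribosomal protein genes were called at a share close to that of all genes. More of them were higher than lower, the reverse of all genes. In knockdown set 2 against knockdown set 1, with an adjusted p under 0.05 for a call, 45 of 76 members were called (59.2%), 33 higher and 12 lower. Over all genes 58.5% were called, 25.1% higher and 33.5% lower. The median difference was 0.07 over members and -0.03 over all genes. With the arrays averaged per shRNA and set, 20 members were called, 17 higher and 3 lower. RPS7 was highest, by 1.09 (SE 0.05). RPL34, of the large subunit, was higher by 0.83 (SE 0.05). It measured 10.34 to 11.50 (median 11.12) in knockdown set 2, against 9.76 to 10.48 (median 10.31) in knockdown set 1. RPL36A, next to the tRNA exit site, was higher by 0.76 (SE 0.06), RPL29 by 0.76 (SE 0.06) and RPL22L1 by 0.74 (SE 0.08). RPL36A measured 8.75 to 9.15 in knockdown set 2, against 7.89 to 8.53 in knockdown set 1, with no overlap. RPL29 measured 10.80 to 11.24 in knockdown set 2, against 9.55 to 10.69 in knockdown set 1, again apart.

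The falls between the sets were smaller. RPS9 was lower in knockdown set 2 by -0.31 (SE 0.05), RPL28 by -0.30 (SE 0.08), RPL4 by -0.29 (SE 0.05), RPLP2 by -0.20 (SE 0.04) and RPL27 by -0.18 (SE 0.04). Under median scaling 58 members were called higher and 2 lower, with a median of 0.30 over members and -0.10 over all genes. RPLP2 and RPL27 were at 0.064 and 0.085 there. Large subunit members, 48 of the 76, accounted for 23 of the 33 higher and 7 of the 12 lower. Of large subunit members 62.5% were called, beside 53.6% of small subunit members and 58.5% of all genes.

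Between the shControl sets, where 3 arrays stand against 3 and standard errors are larger than between the knockdown sets, 3 of 76 members were called in set 2 against set 1 (3.95%), beside 15.3% of all genes (8.17% higher and 7.18% lower). RPS27L was higher by 0.37 (SE 0.08), RPL28 lower by -0.70 (SE 0.17) and RPL22 lower by -0.36 (SE 0.10). RPS27L measured 13.43, 13.51 and 13.52 in shControl set 2, against 13.13, 13.16 and 13.06 in shControl set 1. RPL28 measured 8.71, 8.71 and 8.84 in shControl set 2, against 9.56, 9.27 and 9.53 in shControl set 1. RPL22 measured 11.57, 11.68 and 11.52 in shControl set 2, against 11.88, 12.02 and 11.95 in shControl set 1. None of these 3 genes overlapped between the shControl sets.

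The difference between knockdown and shControl arrays itself changed with the set for 26 of 76 members (34.2%, interaction term, adjusted p under 0.05), close to the 37% over all genes. RPL21 gave one of the widest contrasts, with 1.02 in set 2 and 0.08 in set 1, and is named here after its values were seen. RPL29 had 0.95 and 0.19, and RPL34 had -0.24 and -1.07. RPL36A, RPL26, RPL7 and RPL5 were above shControl in set 2 (0.37, 0.17, 0.41 and 0.20) and below it in set 1 (-0.31, -0.26, -0.22 and -0.14).

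**Figure D4:**
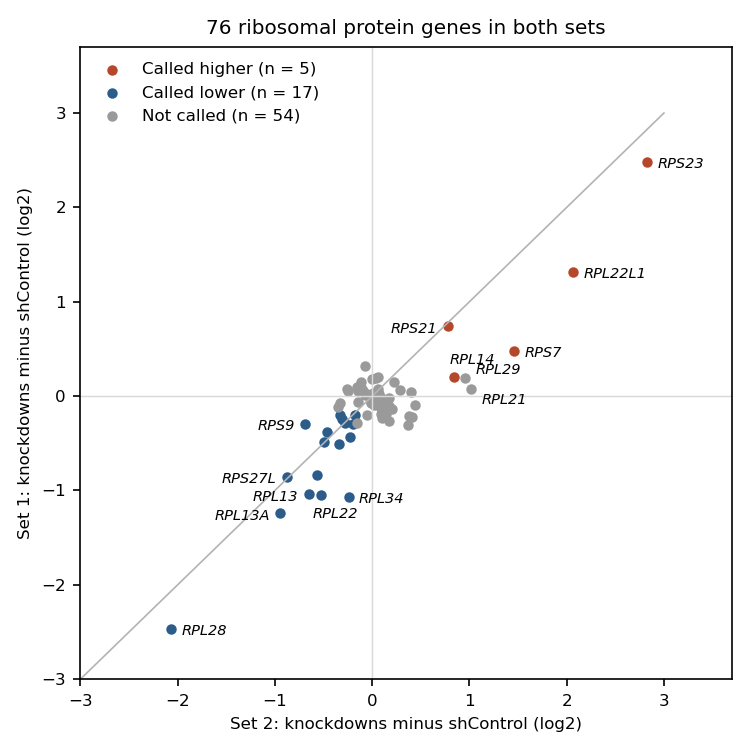
Log2 difference between knockdown and shControl arrays in set 2 (horizontal axis) and in set 1 (vertical axis) for the 76 members, with 5 called higher in red, 17 called lower in blue and 54 not called in grey. The diagonal marks equal differences. RPS21 and RPS27L lie close to it, and RPS7, RPL21 and RPL29 lie to its right, with larger differences in set 2 than in set 1.

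Genes of ribosome biogenesis, the machinery that builds ribosomes, mostly rose. Of 56 measured genes of ribosome biogenesis, 41 were called higher and 2 lower in the mean of the 4 knockdowns against shControl (76.8%, beside 38.9% of all genes), with a median of 0.58. NOP56, a core protein of the small nucleolar particles that guide rRNA methylation, was higher by 1.32 (SE 0.06), RRP9, a U3 particle protein, by 1.27 (SE 0.08) and LYAR, a nucleolar factor, by 1.16 (SE 0.07). NHP2 and NOB1 were lower, by -0.58 and -0.34. WDR3, detected on 20 knockdown arrays and 1 shControl array, and POLR1A, on 16 and 2, passed the detection filter only through the knockdown arrays. Their values support nothing about the list. Under median scaling the list had 42 higher and 1 lower, and with chromosome medians subtracted 39 and 1. In knockdown set 2 against set 1, 39 were higher and 1 lower. The contrast of this list with the ribosomal proteins was not tested as a difference between lists.

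Other genes of translation were mixed. Of 16 other mRNAs known to carry TOP tracts, 1 was called higher and 5 lower (37.5%, beside 38.9% of all genes), with a median of -0.05. EIF3H, EIF3E and PABPC1 were lower by -0.88, -0.61 and -0.57, EIF3F was higher by 0.26, and under median scaling the list had 3 higher and 2 lower. Of 76 mitochondrial ribosomal protein genes, which encode the separate ribosome of that organelle, 16 were higher and 10 lower (34.2%), with a median of 0.12. MRPL47 was higher by 0.90, MRPL19 by 0.87 and MRPS30 by 0.83, while MRPS21 was lower by -0.78, MRPS33 by -0.72 and MRPS24 by -0.61. Median scaling gave 28 higher and 2 lower for the mitochondrial list.

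Of 53 genes with EIF1 to EIF5 symbols, which include eIF4E-binding proteins and eIF2α kinases beside the initiation factors, 16 were higher and 8 lower. Their share called was 45.3%, beside 38.9% of all genes, and their median was 0.07. Median scaling gave 21 and 3. EIF4E3, a cap-binding protein, was detected on 24 of 24 knockdown arrays and 0 of 6 shControl arrays and was at least 5.19-fold higher. EIF5A2, detected on 24 and on 1, was at least 4.51-fold higher. EIF4E3 and EIF5A2 passed the detection filter only through the knockdown arrays, so their values support nothing about the list. EIF4EBP3, an inhibitor of cap binding, was lower by -1.52 (SE 0.09). Of 20 genes of MYC and mTORC1 control, 40% were called, beside 38.9% of all genes. MAX, the partner of MYC, was higher by 0.77 and 7 were lower, among them TSC2 by -0.94 and RHEB by -0.79. Median scaling gave 2 higher and 4 lower for this list. DEPTOR, an inhibitor of mTOR, was detected on 0 of 24 knockdown arrays and 5 of 6 shControl arrays. It passed the detection filter through the shControl arrays alone, so its value supports nothing about this list. MYC itself was 0.93 higher in set 2 and 0.10 in set 1 and was not called.

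**Figure D5:**
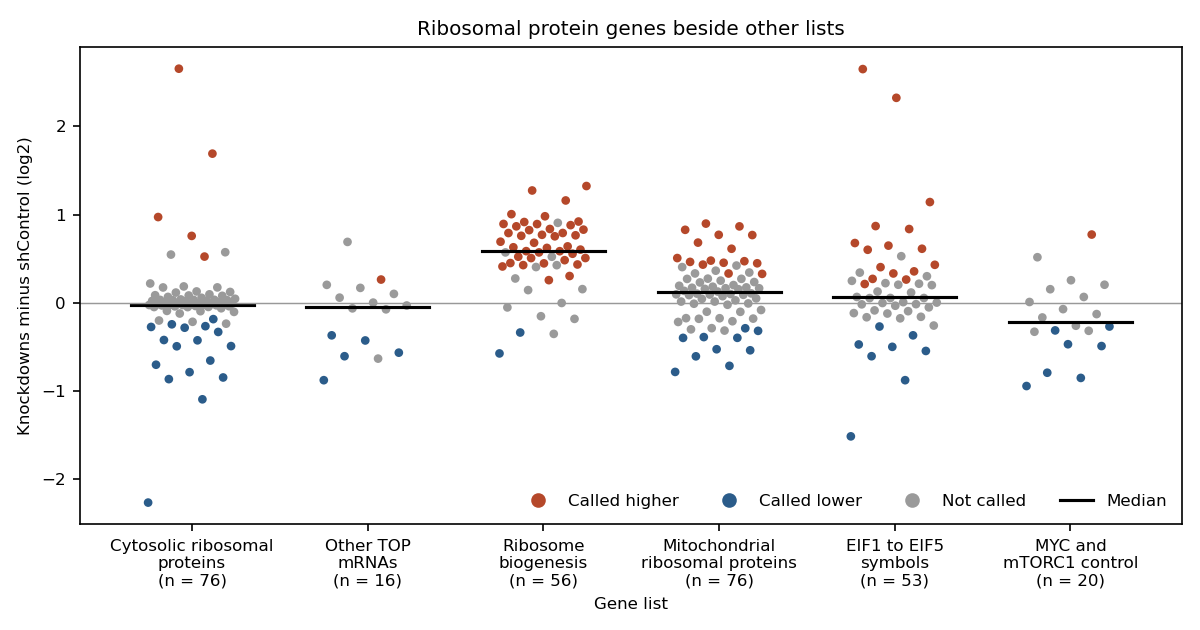
Log2 difference between knockdown and shControl arrays (vertical axis) for each gene of 6 lists, with genes called higher in red, called lower in blue and not called in grey, and a bar at each median (genes at background are drawn at their fitted values). The median of ribosome biogenesis genes stands at 0.58, and that of cytosolic ribosomal protein genes at -0.02 with a few genes far from it.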

How the data were processed

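Each of 30 bead arrays gave, per the file headers, an intensity and a detection p-value per probe in the deposited table without normalization. The authors also deposited log2 values, whose columns all had a median of 6.88 and which served as an alternative. What was done to them is not stated. Their software was not given in the sources used here. Of 47231 probes, 30113 matched 1 symbol, 8 several and 17110 none. Here limma's neqc corrected the background and normalized quantiles (limma 3.58.1, R 4.3.3, offset 16), keeping 26967 probes with detection p under 0.05 on at least 3 arrays. A limma model with 10 group means (20 residual degrees of freedom) gave two-sided p-values, adjusted by Benjamini-Hochberg over 13721 genes, and was tested on simulated data. The number of arrays limits the precision. Promoters came from RefSeq (GRCh38.p14).

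The members, lists and named genes were chosen with earlier results of these data known. Members named are the 5 highest and 5 lowest called against shControl and between the knockdown sets, up to 3 per direction elsewhere, 19 measured genes of general interest or with paralogues, and those whose call a further probe opposed in sign. The remaining called members, RPS29 and the other uncalled members with a called further probe were named after their values were seen. Lower bounds set arrays of the dim side no lower than their dimmest detected probe. Alternatives changed normalization, filters, probes, blocking and chromosome medians, or left out arrays. Same-numbered replicates of different groups did not deviate together (3 of 135 pairs correlated above 0.1).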

Additional observations from a re-analysis of the deposited data

Results flagged for a closer look

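For 16 of the 32 named members the difference between knockdown and shControl arrays differed between the sets by an interaction test in the limma model (adjusted p under 0.05), 13 with a larger value in set 2 and 3 with a smaller one. The share over all 76 members was 34.2% and over all genes 37%, and many of the named members were chosen for their difference between the sets. The values that follow are the difference in set 2 minus that in set 1, on the log2 scale. RPS7 stood at 0.98, RPL34 at 0.83, RPL29 at 0.76, RPL22L1 at 0.75 (with shControl values at background), RPL36A at 0.67, RPL14 at 0.64 and RPL7 at 0.64. RPL22 stood at 0.53, RPL26 at 0.43, RPL13 at 0.39, RPL5 at 0.35, RPS23 at 0.34 and RPL13A at 0.30. RPS9 stood at -0.39 (adjusted p = 0.012), RPL27 at -0.33 and RPLP2 at -0.30. What distinguishes the sets is not given in the labels, and its part in these values was not tested. Groups of 3 arrays are too small for the test of a single outlying array.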

How the results depend on the processing

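Counts of called members were compared under 9 ways of processing the table and with each array left out. Median scaling gave 13 for the mean of the 4 knockdowns against shControl (7 higher and 6 lower, beside 22) and 8 for shCHK1 against shControl (beside 16). Means per shRNA and set gave 11 for shATM and 12 for the arrays labelled shATR against shControl (beside 19 each), and 20 for knockdown set 2 against set 1 (beside 45), with fewer values entering each fit. The authors' log2 values, and no background correction, each gave 5 for the shControl sets (beside 3). Every other count under these 9 stayed within 1.5 times its main value, and the 4 comparisons among knockdowns stayed at 0. Without a single array, or without the 2 arrays that stood apart (an alternative chosen after seeing the data), the counts ran from 19 to 23 for the mean of 4 knockdowns, 16 to 20 for shATM, 17 to 20 for shATR, 11 to 17 for shCHK1, 14 to 17 for shCHK2, 42 to 51 for the knockdown sets and 2 to 5 for the shControl sets, where 5 came from leaving out both arrays, replicate 3 of shATR set 2 and of shCHK2 set 1. Among named values past the threshold, those that changed sign were RPLP2 and RPL27 between the knockdown sets (0.064 and 0.085, median scaling) and RPL36 (0.040, mean of probes), and the cause was not tested. RPS2 (0.09) and RPS15A (0.19) also changed sign with chromosome medians subtracted, and RPS15A (0.038) with median scaling. Against shControl the uncalled RPL11 (0.18), RPS27 (0.20), RPL26 (0.14), RPL36AL (0.12), RPL27 (0.094) and RPLP2 (0.11) turned positive under median scaling, and the uncalled RPS6, RPL39, RPL5 and RPL36A, all close to 0, turned negative with chromosome medians subtracted. RPL11 (0.017) and RPS6 (-0.041) changed sign with the mean of probes. The replicate number as a block gave 22 members for the mean of 4 knockdowns and changed no member's call there. Median scaling moved the median of all genes for shATM against the other knockdowns to -0.11, and that of members to -0.12. Means per shRNA and set could not be fitted for the shControl sets. The median r of same-numbered arrays was 0.003, so the block has no basis in the design. Bright members near the top of the intensity range and dim members near background limit what a difference can show.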
